A study of Mus musculus with 6 samples.

Results

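Fat progenitors are the stromal cells of an adipose depot from which new fat cells form, and 10 genes used to recognise them in the mouse were examined here: Pdgfra, Pdgfrb, Ly6a, Cd34, Dpp4, Pi16, Icam1, Dlk1, F3 and Clec11a. They were chosen by symbol from a count table of 57180 genes, and all 10 were found and passed the filter on low counts, which left 17320 genes for testing. The tissue was inguinal white fat, a depot under the skin, of wild-type mice fed a high-fat diet. In 3 libraries the mice had received recombinant Adissp, a protein secreted by fat cells, daily at 68 nmol/kg for 33 days (ADISSP). The other 3 came from mice on the same diet labelled Control. What the Control mice were given, and the age and sex of all mice, are not stated in the labels. The labels call the libraries biological triplicates without saying whether a library is 1 mouse, so p-values measure the spread between these libraries.

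Progenitors are held to form a hierarchy, described mainly in single-cell work on mouse inguinal fat. Cells with Dpp4 and Pi16 sit in the connective tissue between fat lobules and give rise to committed preadipocytes, which carry Icam1 and Dlk1 and lie closer to fat cells and vessels. A further population carries CD142, the product of F3, together with Clec11a, and has been reported to restrain fat cell formation by its neighbours. Pdgfra, Ly6a and Cd34 are shared by most of these cells, and Pdgfrb by progenitors and pericytes. None of the genes belongs to progenitors alone: endothelium carries Cd34, Ly6a and Icam1, T cells carry Dpp4 and Ly6a, and macrophages and lymphocytes carry Icam1. RNA of whole tissue was sequenced, so fewer cells of a type and less RNA per cell cannot be told apart.

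Total counts ran from 10357930 to 15658428 per library. One control library, Control 3, stood apart from Control 1 and 2, and results are therefore also given with Control 3 as the sole control and without it. Its summed level of 12 T cell genes was 92.4 CPM against 282 and 393 CPM in Control 1 and 2, and 30.6 to 42.1 CPM in ADISSP. Its summed level of 12 skeletal muscle genes was 11331 CPM against 39.1 and 52.3 CPM, with 4033 to 4779 CPM in ADISSP. Mitochondrial genes took 3.13% to 4.20% of counts in Control and 8.43% to 11.1% in ADISSP, and the part of this in the results was not tested. Of all tested genes, 35.0% differed between the groups, 16.5% lower and 18.5% higher in ADISSP, at an adjusted p under 0.05. CPM here are counts relative to library size after TMM scaling, which corrects for composition. A change is the log2 of ADISSP over Control, given with its standard error (SE).

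Of the 10 markers, 4 were lower in ADISSP past the threshold: Pdgfra, Cd34, Icam1 and Pdgfrb. None of the 10 was higher (edgeR quasi-likelihood fit, p adjusted over all genes by Benjamini-Hochberg). At an unadjusted p under 0.05 the numbers were 5 lower and 0 higher. No share over all genes is given for that criterion, here or for the lists below. The share lower is at least the 16.5% past the adjusted threshold, so unadjusted counts have no background to be read against. DESeq2 called 4 lower and 0 higher, against 3065 lower and 2989 higher among the 32254 genes with any count. That set is wider than the 17320 genes of the main fit, so the shares over all genes are not alike. The same 4 genes were the ones whose CPM did not overlap between the groups, with ADISSP below Control, as was the case for 23.8% of all tested genes, and no marker lay wholly above Control, as 26.0% of genes did. With Control 3 as the sole control, 3 were lower (Pdgfra, Pdgfrb and Cd34) and 0 higher, against 7.70% and 10.7% of all genes. That comparison takes its spread from the ADISSP libraries and assumes that the lone control varies as they do. On library totals 6 markers were lower and 0 higher, against 38.0% and 10.2% of all genes, and on log2(TPM + 1) in limma 6 and 0, against 55.0% and 7.41%. The added pair was Ly6a and Dpp4.

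**Figure D1:**
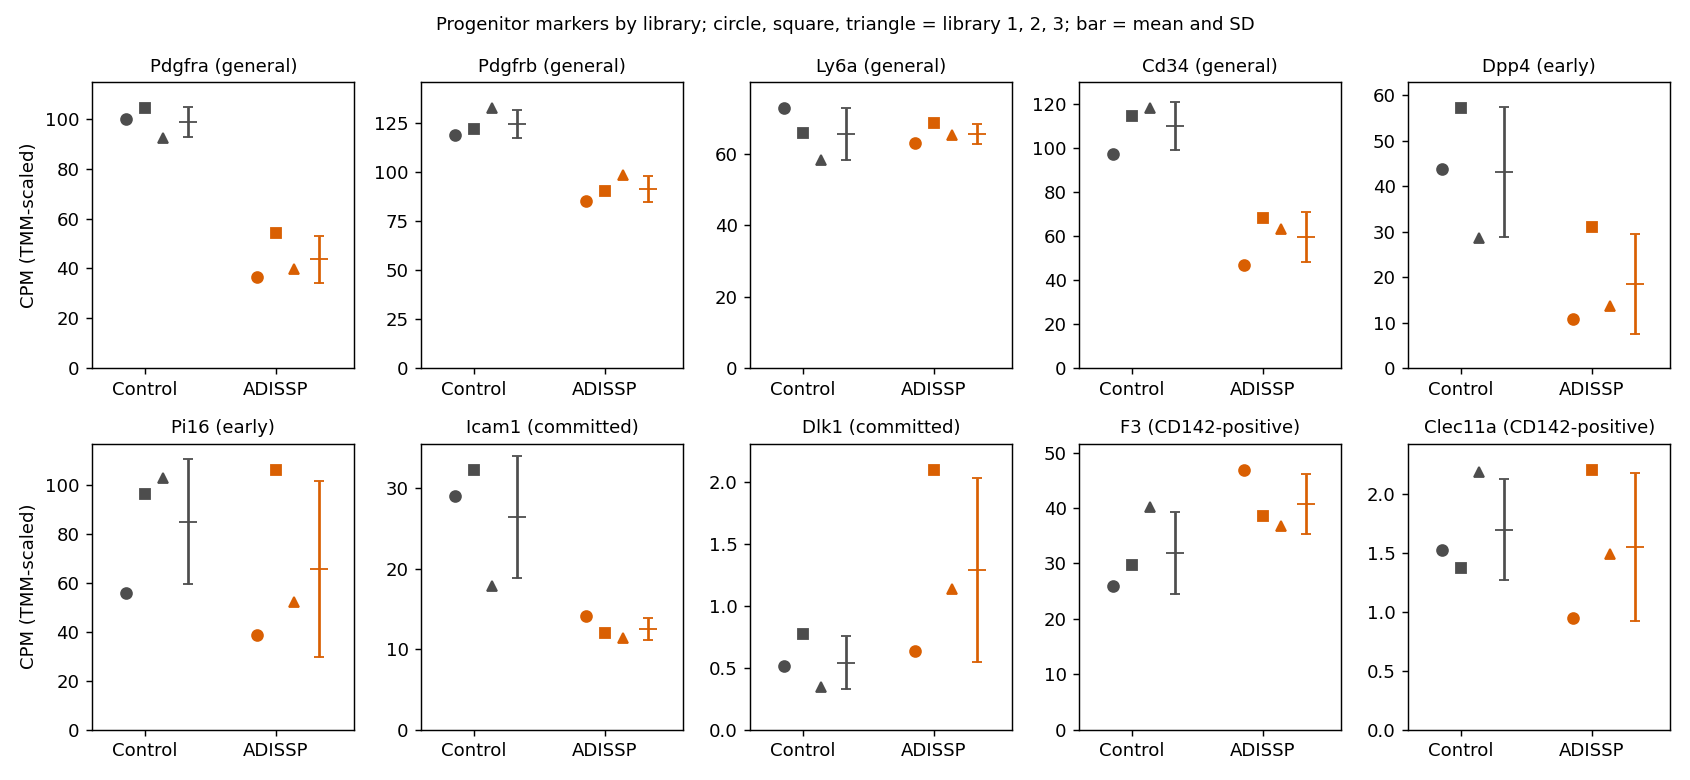
CPM (TMM-scaled) of the 10 progenitor markers in each library, with Control in grey and ADISSP in orange; circles, squares and triangles are libraries 1, 2 and 3, and bars give the mean and SD of 3 libraries. Pdgfra, Pdgfrb, Cd34 and Icam1 lie lower in every ADISSP library than in any Control library, while Pi16, Ly6a, F3, Dlk1, Clec11a and Dpp4 overlap.

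Among the general markers, Pdgfra fell most and Ly6a showed a change near 0. Pdgfra encodes the alpha receptor for platelet-derived growth factor, the receptor by which fat progenitors are most often sorted. It stood at 99.7, 104 and 92.3 CPM in Control 1, 2 and 3 and at 36.7, 54.1 and 40.0 CPM in ADISSP 1, 2 and 3. The highest ADISSP library was well below the lowest Control library. Means were 98.7 ± 6.01 CPM in Control and 43.6 ± 9.28 CPM in ADISSP (SD, n = 3 each), a 2.27-fold fall (log2 fold change -1.18, SE 0.14, edgeR adjusted p = 4.48e-04). Leaving out any 1 library gave changes from -1.35 to -1.06, all past the threshold. Pdgfra (ENSMUSG00000029231) lies on chromosome 5, 75312953 to 75358876 of GRCm39.

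Cd34 encodes a sialomucin on the surface of progenitors and of endothelium. Its levels were 97.4, 115 and 118 CPM in Control and 47.1, 68.4 and 63.4 CPM in ADISSP, again without overlap. The mean went from 110.1 ± 11.1 to 59.6 ± 11.2 CPM (SD, n = 3 each), 1.85-fold lower, with a log2 fold change of -0.89 (SE 0.15, edgeR adjusted p = 0.00233). Beside it, 5 of 12 blood endothelial genes fell, with a median change of -0.32. Their summed level was 1226 to 1273 CPM in Control and 839 to 1050.4 CPM in ADISSP. Vwf, the endothelial clotting factor carrier, changed by -1.14, Pecam1 by -0.70 and the junction gene Cdh5 by -0.30, all past the threshold. Leaving out Control 1, ADISSP 1 or ADISSP 2 left 3 that fell, and Cdh5 passed in no fit with 1 library left out but the one without Control 3. How much of the change in Cd34 came from endothelium was not tested. The gene (ENSMUSG00000016494) is on chromosome 1, 194621127 to 194643587, and a lncRNA on the other strand, Gm16897, overlaps 5521 bases of it. That lncRNA held 62 counts over the 6 libraries, far fewer than Cd34.

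Pdgfrb, the beta receptor for platelet-derived growth factor, fell to a smaller extent. It stood at 119, 122 and 133 CPM in Control and at 85.5, 90.6 and 98.4 CPM in ADISSP. The groups were tight and separate, with means of 125 ± 7.16 and 91.5 ± 6.48 CPM (SD, n = 3 each). The log2 fold change was -0.44 (SE 0.10, edgeR adjusted p = 0.00766), 1.36-fold lower. Pericytes and vascular smooth muscle also carry Pdgfrb, and of 12 mural cell genes 1 fell and 0 rose (1 and 0 also at an unadjusted p under 0.05 and by DESeq2), with a median of -0.18. That gene was Abcc9, a pericyte potassium channel subunit, at -0.35, while the pericyte genes Rgs5 and Cspg4 were at -0.23 and 0.42 and did not pass. The call of Abcc9 ended without Control 1, Control 2, ADISSP 1 or ADISSP 2. Without Control 3 the mural genes Cspg4 (0.65) and Des (2.41) were higher and 1 was lower, beside 23.6% and 23.1% of all genes. All 12 skeletal muscle genes were also higher in that fit. With Control 3 as the sole control the mural median was -0.34. The summed mural level was 1143 to 1668 CPM in Control and 1232 to 1463 CPM in ADISSP. Pdgfrb (ENSMUSG00000024620) is on chromosome 18, 61178222 to 61218133.

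Ly6a encodes Sca-1, a surface antigen used with Cd34 to sort progenitors. It stood at 72.7, 65.7 and 58.1 CPM in the Control libraries and at 63.0, 68.5 and 65.3 CPM in the ADISSP libraries, so the ADISSP values lay within the Control range. Means of 65.5 ± 7.29 and 65.6 ± 2.78 CPM (SD, n = 3 each) gave a log2 fold change of 0.00 (SE 0.10, edgeR adjusted p = 0.996). On library totals its value was -0.36 (adjusted p = 0.0420), a scaling that moved the median of all genes by a similar amount, to -0.36. Ly6a (ENSMUSG00000075602, chromosome 15, 74866726 to 74869880) has close paralogues in the Ly6 family, and counts of such genes are uncertain where reads map to several of them.

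The promoters of Pdgfra, Cd34 and Icam1, which fell together, and of F3, which did not fall, are shown for comparison. They are RefSeq windows of the GRCm38.p6 build, 250 bases before to 50 after the annotated start, read 5′ to 3′ on the gene's strand, here the plus strand for each. Capitals mark matches on either strand to the TATA box TATAAA, the box CCAAT, the Sp1 core GGGCGG, the AP-1 core TGANTCA, the TEAD motif GGAATG, an NF-kB motif or a PPAR direct repeat. The windows are chr5:75152001-75152300, chr1:194938571-194938870, chr9:21015690-21015989 and chr3:121723287-121723586, in the order below.
Pdgfra: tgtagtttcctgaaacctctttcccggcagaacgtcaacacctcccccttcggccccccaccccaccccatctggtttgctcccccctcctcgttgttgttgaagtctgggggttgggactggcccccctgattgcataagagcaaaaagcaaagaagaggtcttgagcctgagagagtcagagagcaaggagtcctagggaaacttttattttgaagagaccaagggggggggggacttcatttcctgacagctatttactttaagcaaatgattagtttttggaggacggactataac
Cd34: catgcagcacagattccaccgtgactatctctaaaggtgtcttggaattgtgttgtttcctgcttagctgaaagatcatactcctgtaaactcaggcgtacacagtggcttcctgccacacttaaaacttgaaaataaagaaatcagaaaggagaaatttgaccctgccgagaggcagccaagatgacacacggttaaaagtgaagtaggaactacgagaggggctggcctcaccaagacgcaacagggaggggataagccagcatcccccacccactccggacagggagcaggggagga
Icam1: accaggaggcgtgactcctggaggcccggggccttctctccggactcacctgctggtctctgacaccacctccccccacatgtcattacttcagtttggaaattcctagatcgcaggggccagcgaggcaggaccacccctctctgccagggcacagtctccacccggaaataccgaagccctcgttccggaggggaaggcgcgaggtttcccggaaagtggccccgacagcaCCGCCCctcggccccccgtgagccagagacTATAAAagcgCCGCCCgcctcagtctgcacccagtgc
F3: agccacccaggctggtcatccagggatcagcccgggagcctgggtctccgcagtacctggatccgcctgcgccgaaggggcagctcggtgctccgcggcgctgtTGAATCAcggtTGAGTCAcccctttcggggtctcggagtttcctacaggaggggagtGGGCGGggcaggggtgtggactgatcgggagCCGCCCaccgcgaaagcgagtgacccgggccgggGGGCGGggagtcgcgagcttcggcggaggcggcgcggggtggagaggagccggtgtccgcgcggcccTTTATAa
The windows of Pdgfra and Cd34 held no match to any of these motifs. The pattern CANNTG, held by 72.3% of all windows, was also searched but is not in capitals. It was found from bases 69 and 268 of the Pdgfra window and 47 and 77 of the Icam1 window, and not in those of Cd34 and F3. The Icam1 window held TATAAA at 1 place, from base 264 of the window and so after the annotated start. It held GGGCGG on the minus strand at 2 places, and 64.7% of its bases were G or C. The F3 window held TGANTCA at 146 and 135 bases before the start and GGGCGG at 3 places, with 70.3% G or C. Its TATAAA match was on the minus strand, from base 294 of the window and so also after the start. Among all 32851 promoter windows, 7.81% held TGANTCA, 35.7% GGGCGG, 13.6% TATAAA, 37.4% CCAAT, 14.7% GGAATG, 0.411% the NF-kB motif and 0.0396% the PPAR repeat. The median window had 52.7% G or C. A match is a stretch of letters and not a shown site. Windows were found for 8 of the 10 markers, not for Pdgfrb and Ly6a.

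The early progenitor markers Dpp4 and Pi16 varied widely between libraries of the same group, and neither passed the threshold in the fit without pairing. With the replicate number as a block, Dpp4 was at -1.31 and passed (edgeR adjusted p = 0.0107), although nothing in the labels pairs the libraries. Dpp4 encodes a cell surface peptidase, known as CD26 on T cells. It stood at 43.9, 57.2 and 28.6 CPM in Control and at 10.8, 31.1 and 13.6 CPM in ADISSP. ADISSP 2 exceeded Control 3, so the groups overlapped. The mean went from 43.2 ± 14.3 to 18.5 ± 11.0 CPM (SD, n = 3 each), with a log2 fold change of -1.24, a size like that of Pdgfra, but an SE of 0.48 (edgeR adjusted p = 0.106). Without ADISSP 2 the change was -1.80 and passed (adjusted p = 0.0121). Over the other fits with 1 library left out the adjusted p ran up to 0.257. With Control 3 as the sole control it was -0.67 (adjusted p = 0.666).

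Pi16 encodes a secreted peptidase inhibitor that marks early, widely distributed fibroblasts. Its levels were 55.8, 96.3 and 103 CPM in Control and 38.5, 106 and 52.1 CPM in ADISSP. The highest value of all 6 libraries was in ADISSP 2 and the lowest in ADISSP 1. Means were 85.0 ± 25.5 and 65.6 ± 35.8 CPM (SD, n = 3 each), with a log2 fold change of -0.38 (SE 0.46, edgeR adjusted p = 0.574), a difference smaller than the spread between libraries. Leaving out 1 library moved it from -0.89 without ADISSP 2 to -0.10 without ADISSP 1, and no such fit passed. Dpp4 (ENSMUSG00000035000) is on chromosome 2, 62160417 to 62242575, and Pi16 (ENSMUSG00000024011) on chromosome 17, 29536654 to 29549567.

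The ratio of Dpp4 to Pi16 counts within a library needs no scaling between libraries. It was 0.786 and 0.593 in Control 1 and 2, 0.278 in Control 3, and 0.281, 0.293 and 0.262 in ADISSP 1, 2 and 3. Control 3 thus stood with the ADISSP libraries, and ADISSP 2, with the highest Pi16, had a ratio close to those of ADISSP 1 and 3. All 12 T cell genes were lowest in Control 3 among the controls, as was the case for 40.5% of all tested genes. T cell genes were not alone in this. It held for all 10 B cell genes, 7 of 7 tested lymph node genes and 7 of 7 tested mast cell genes. It held for 4 of 12 macrophage genes and 0 of 12 skeletal muscle genes. Of these T cell genes 11 fell and 0 rose in ADISSP (12 and 0 at an unadjusted p under 0.05, also by DESeq2), with a median of -2.77. The number that fell was 4 without ADISSP 1 or ADISSP 3, 5 without ADISSP 2 or Control 1, and 12 without Control 3. With Control 3 as the sole control it was 7, and the median was -1.09. The part of T cells in the Dpp4 level was not tested.

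**Figure D2:**
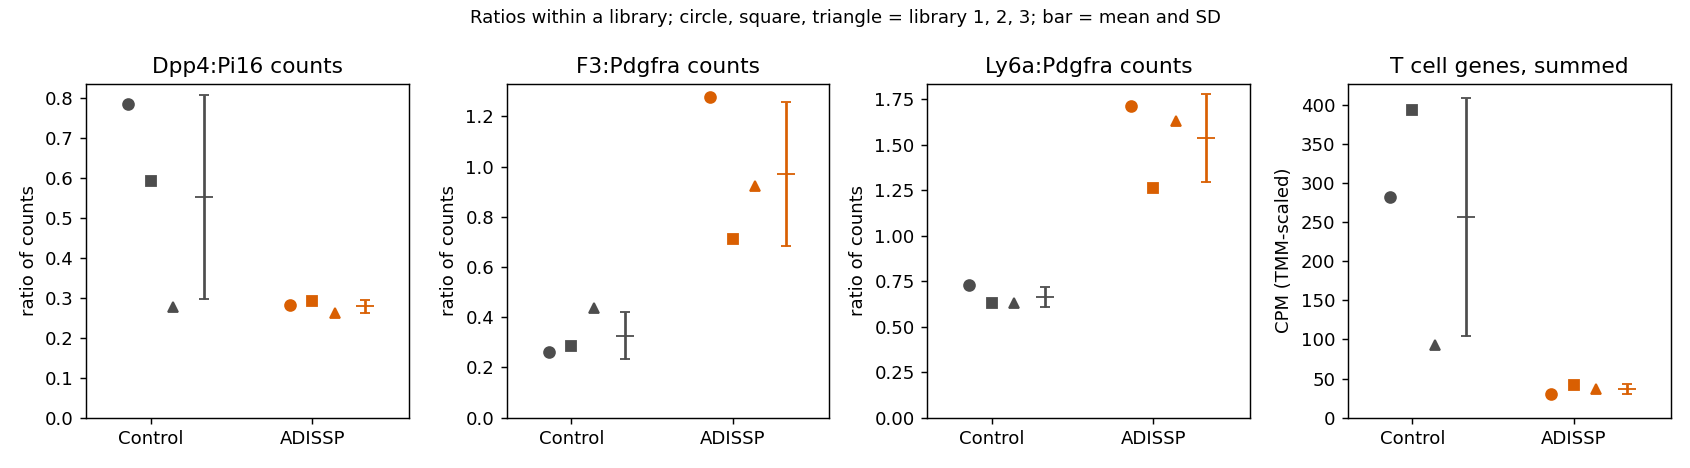
Ratios of raw counts within each library for Dpp4 to Pi16, F3 to Pdgfra and Ly6a to Pdgfra, and the summed CPM of 12 T cell genes; circles, squares and triangles are libraries 1, 2 and 3, and bars give the mean and SD. The Dpp4 to Pi16 ratio of Control 3 (0.278) lies among the ADISSP values, and so does no other Control value.

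Of 25 other genes of early progenitors 24 could be tested. In ADISSP 6 fell and 1 rose, and the median was -0.40 against -0.01 over all genes (-0.20 without ADISSP 1). The complement regulator Cd55 changed by -1.47 (edgeR adjusted p = 0.00898), the microfibril gene Mfap5 by -0.98, the interleukin 13 receptor chain Il13ra1 by -1.57, the hyaluronan synthase Has1 by -2.12, the semaphorin Sema3c by -0.36 and the sialic acid hydroxylase Cmah by -2.52. Ackr3, a scavenging chemokine receptor, rose by 1.37 (edgeR adjusted p = 8.13e-05). Heg1, the most abundant of the list, was at 0.10 and did not pass. Cmah stood at 99.7 and 115 CPM in Control 1 and 2 but at 30.5 CPM in Control 3, as T cell genes did, and lost its call when any 1 library other than Control 3 was left out. The call of Sema3c ended without Control 1, ADISSP 2 or ADISSP 3. With Control 3 as the sole control 4 of the 24 were lower and 1 higher, and Il13ra1 (adjusted p = 0.0528) and Has1 (adjusted p = 0.0895) no longer passed.

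Within ADISSP, 15 of the 24 early progenitor genes (62.5%) had library 1 lowest and library 2 highest, an order found in 18.6% of all tested genes and chosen after the values were seen. Anxa3 showed it at 32.0, 64.0 and 46.1 CPM in ADISSP 1, 2 and 3, against a Control mean of 57 ± 9.2 CPM (SD, n = 3). Gfpt2, an enzyme of the hexosamine pathway, stood at 22.1, 48.0 and 37.2 CPM, against 35.9, 45.3 and 44.0 CPM. Efhd1, a mitochondrial calcium-binding protein, was at 2.77, 13.9 and 9.23 CPM, against 6.62, 9.84 and 8.32 CPM. None of these 3 passed the test of ADISSP against Control. It was not particular to early progenitor genes, since it held for 8 of 12 skeletal muscle genes (66.7%), 5 of 10 B cell genes, 6 of 12 T cell genes, 5 of 12 macrophage genes and 7 of 15 general fibroblast genes. It held for 2 of 13 committed and 1 of 8 CD142-positive genes. ADISSP 2 was also the shallowest library, at 10357930 counts.

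Of the committed preadipocyte markers, Icam1 fell and Dlk1 was close to the limit of detection. Icam1 encodes an adhesion molecule for leukocyte integrins. It stood at 29.0, 32.3 and 17.8 CPM in Control and at 14.1, 12.0 and 11.4 CPM in ADISSP. The groups did not overlap, but Control 3 lay nearer to ADISSP than to the other controls. The mean went from 26.4 ± 7.59 to 12.5 ± 1.39 CPM (SD, n = 3 each), 2.11-fold lower, with a log2 fold change of -1.08 (SE 0.22, edgeR adjusted p = 0.00653). Leaving out 1 library kept it past the threshold, with values from -1.29 to -0.91. With Control 3 as the sole control it was -0.52 and no longer passed (adjusted p = 0.117). Icam1 (ENSMUSG00000037405) is on chromosome 9, 20927281 to 20940113.

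Control 3 was also the lowest control for the leukocyte integrins that bind Icam1. Itgal stood at 72.5, 90.7 and 27.8 CPM in Control and 23.6 to 27.1 CPM in ADISSP (-1.33, edgeR adjusted p = 0.0726). Itgb2 stood at 66.5, 83.2 and 53.2 CPM in Control and 29.7 to 37.6 CPM in ADISSP, and fell (-1.02, edgeR adjusted p = 0.00249). Itgam, the partner of Itgb2 on myeloid cells, was at -0.19 and did not pass. Of 12 macrophage genes, whose cells also carry Icam1, 10 fell and 1 rose, with a median of -0.93. Their summed level was 642 to 690 CPM in Control and 303 to 376 CPM in ADISSP. The part of leukocytes in the Icam1 level was not tested.

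Dlk1 encodes Pref-1, a membrane protein of preadipocytes that holds back differentiation. It had 9, 14 and 5 counts in Control and 8, 19 and 16 in ADISSP, or 0.341 to 0.769 and 0.633 to 2.10 CPM. ADISSP 1 lay within the Control range and the other ADISSP libraries above it. The log2 fold change was 1.18 with an SE of 0.53 (edgeR adjusted p = 0.116), so a difference was not detectable at this depth. Meg3, a noncoding RNA imprinted with Dlk1, stood at 27.7, 33.3 and 36.1 CPM in Control and 30.8, 45.3 and 37.5 CPM in ADISSP (0.23, edgeR adjusted p = 0.301). Dlk1 (ENSMUSG00000040856) is on chromosome 12, 109418749 to 109429262.

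Other genes of committed preadipocytes went both ways. Of 13 tested, 4 fell and 1 rose, with a median of -0.14. Vcam1, an adhesion molecule for leukocytes, changed by -1.67 (edgeR adjusted p = 3.84e-04), the chemokine Cxcl14 by -1.36, the opioid precursor Penk by -1.70 and the matricellular gene Sparcl1 by -0.49. Steap4, a metalloreductase of fat cells, rose by 0.83. Vcam1 stood at 54.7, 63.5 and 37.2 CPM in Control and 15.2 to 17.5 CPM in ADISSP, with Control 3 lowest of the controls as for Icam1. The basement membrane collagen genes Col4a1 and Col4a2, the most abundant of the list, were at -0.11 and -0.14 and did not pass. Without Control 3 the numbers were 4 lower and 3 higher, beside 23.1% and 23.6% of all genes, so 3 of 13 is close to the background.

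In the CD142-positive class neither member, F3 or Clec11a, passed the threshold, while 5 of 8 other genes of the class fell. F3 encodes tissue factor, the receptor that starts blood clotting. It stood at 25.9, 29.6 and 40.2 CPM in Control and at 46.9, 38.5 and 36.8 CPM in ADISSP. Control 3 lay within the ADISSP range and Control 1 and 2 below it. Means were 31.9 ± 7.39 and 40.7 ± 5.40 CPM (SD, n = 3 each), with a log2 fold change of 0.35 (SE 0.17, edgeR adjusted p = 0.144). Without Control 3 it was 0.55 and passed (adjusted p = 0.00413), and with Control 3 as the sole control it was 0.01. In limma on log2(TPM + 1) it stood at -0.21 without passing, where the median of all genes was -0.51. F3 (ENSMUSG00000028128) is on chromosome 3, 121517186 to 121528697.

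Clec11a, a secreted lectin with a role as a growth factor for bone-forming cells, was scarce. It had 27, 25 and 32 counts in Control and 12, 20 and 21 in ADISSP. In CPM the means were 1.69 ± 0.429 and 1.55 ± 0.630 (SD, n = 3 each), with ranges of 1.37 to 2.18 and 0.949 to 2.21 that overlapped. The log2 fold change was -0.15 (SE 0.39, edgeR adjusted p = 0.799), and it changed sign without Control 3 (0.06) or without ADISSP 1 (0.12). The gene (ENSMUSG00000004473) is on chromosome 7, 43952111 to 43956326.

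Of 8 other genes of the CD142-positive class 5 fell and 0 rose (5 and 0 also at an unadjusted p under 0.05 and by DESeq2), with a median of -0.82. The proteoglycan Bgn stood at 360, 310 and 336 CPM in Control and 96.6, 127 and 134 CPM in ADISSP. It changed by -1.49 (SE 0.14, edgeR adjusted p = 9.47e-05), the BMP family member Gdf10 by -1.68, the flavin monooxygenase Fmo2 by -0.88, the homeobox gene Meox2 by -0.76 and the ephrin receptor Epha3 by -2.04. Mgp, an inhibitor of calcification, was at -0.17, Vit at -0.61 and Igfbp3 at 0.14, and none of these passed. The call of Meox2 ended without Control 1, Control 2, ADISSP 1 or ADISSP 2, and that of Epha3 without ADISSP 1. Lower past the threshold were 3 of the 8 without ADISSP 1, 4 without Control 1, Control 2 or ADISSP 2, and 5 without Control 3 or ADISSP 3. With Control 3 as the sole control the median was -0.90.

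**Figure D3:**
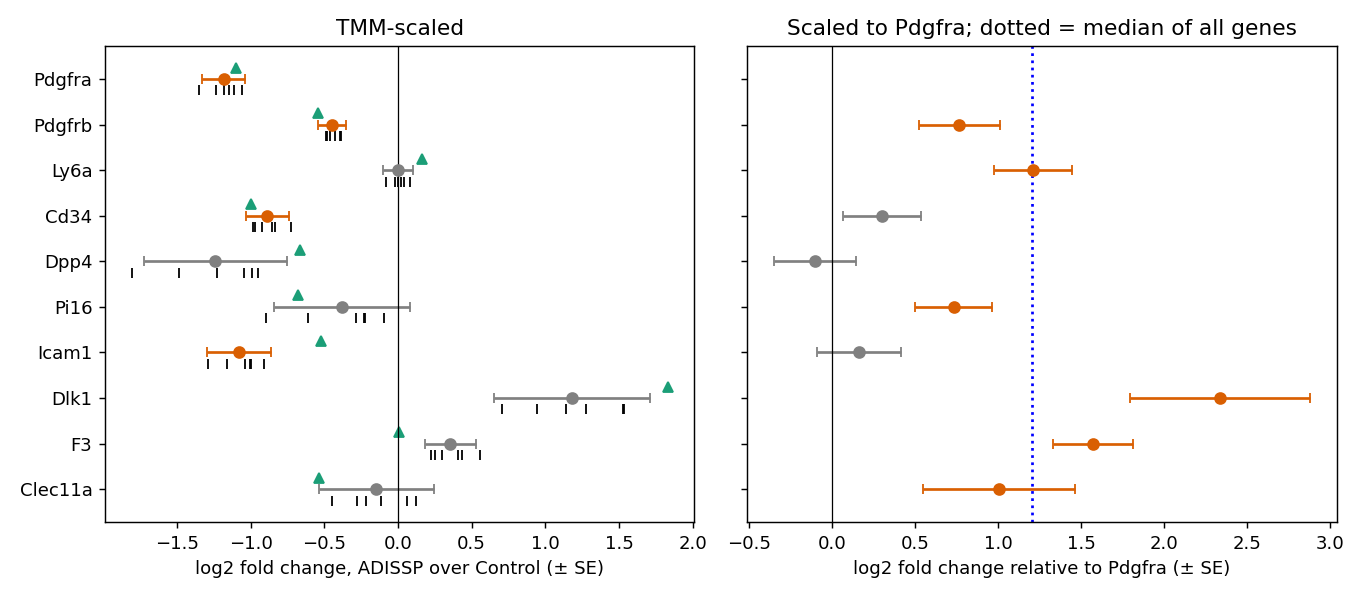
Left, log2 fold change of ADISSP over Control with SE for the 10 markers, orange where past the threshold; black ticks are the values with 1 library left out and green triangles those with Control 3 as the sole control. Right, the change relative to Pdgfra, which is past the threshold for 6 of 9 markers; the dotted line is the median of all genes, 1.20.

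To ask whether markers moved by more or less than the general marker Pdgfra, libraries were also scaled so that Pdgfra was equal in all 6. In that fit 76.5% of all genes were higher in ADISSP and 2.94% lower, and the median change was 1.20, since Pdgfra itself had fallen. Of the 9 other markers 6 were higher and 0 lower relative to Pdgfra. Of those that fell on TMM scaling, Cd34 was at 0.30 (SE 0.23, edgeR adjusted p = 0.229) and Icam1 at 0.16 (SE 0.25, adjusted p = 0.545), while Pdgfrb was 1.70-fold higher relative to Pdgfra (0.77, SE 0.24, adjusted p = 0.00256). Dpp4 was at -0.10 (SE 0.25, adjusted p = 0.702). A p that misses the threshold does not show that these genes moved as Pdgfra did. Noise in Pdgfra itself (SE 0.14 on TMM scaling) shifts all values on this scale together, in the same direction. The fit treats genes as independent, and noise shared by all of them can make its p-values smaller than 6 libraries warrant.

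F3 and Ly6a were further apart from Pdgfra. The ratio of F3 to Pdgfra counts was 0.260, 0.284 and 0.435 in Control and 1.28, 0.711 and 0.922 in ADISSP, without overlap, and F3 was 2.97-fold higher relative to Pdgfra (1.57, SE 0.24, edgeR adjusted p = 4.39e-10). Without ADISSP 2, F3 was at 1.75 on this scale (SE 0.25, edgeR adjusted p = 2.91e-04). The ratio of Ly6a to Pdgfra was 0.630 to 0.729 in Control and 1.26 to 1.72 in ADISSP, 2.32-fold higher (edgeR adjusted p = 7.65e-07). Pi16 was 1.66-fold higher relative to Pdgfra (0.73, SE 0.23, edgeR adjusted p = 0.00271), a call lost without Control 1 or without ADISSP 2. Dlk1 and Clec11a were 5.05-fold and 2.01-fold higher on their few counts, and Clec11a lost its call in 4 of 6 fits with 1 library left out. Since most genes were higher on this scale, these calls do not set the markers apart from other genes.

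**Figure D4:**
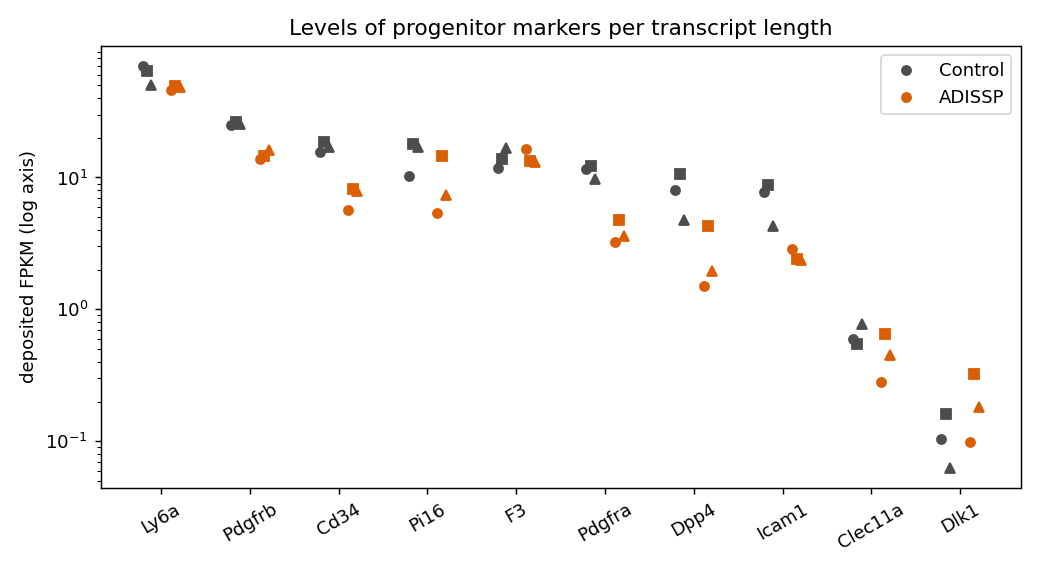
Deposited FPKM of the 10 markers on a log axis, ordered by the Control mean, with Control in grey and ADISSP in orange and libraries 1, 2 and 3 as circles, squares and triangles. Ly6a is highest in both groups (46.1 to 70.0 FPKM) and Dlk1 lowest in the mean of both (0.0633 to 0.324 FPKM).

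Levels between genes were compared per transcript length, as FPKM of the deposited table, which carries no TMM scaling. In Control, Ly6a was highest at 61.7 ± 9.97 FPKM, followed by Pdgfrb at 25.7 ± 0.636 FPKM (SD, n = 3 each), and neither range touched that of the next gene. Cd34 (17.0 ± 1.54), Pi16 (15.0 ± 4.21), F3 (14.2 ± 2.41), Pdgfra (11.2 ± 1.35), Dpp4 (7.83 ± 2.98) and Icam1 (6.92 ± 2.34 FPKM) followed, each overlapping the next. Clec11a at 0.637 ± 0.118 and Dlk1 at 0.110 ± 0.0489 FPKM were far lower. In ADISSP Ly6a again led at 48.2 ± 1.90 FPKM. F3 at 14.3 ± 1.82 FPKM stood beside Pdgfrb at 14.8 ± 1.23 FPKM, their ranges overlapping, and above Cd34 at 7.25 ± 1.36 and Pdgfra at 3.85 ± 0.784 FPKM.

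Among other genes of fat pad fibroblasts, 8 of 15 fell and 1 rose, with a median of -0.56. Lum and Dcn, small proteoglycans of collagen-rich tissue, changed by -2.06 and -1.53, and the fibrillar collagen gene Col3a1 by -1.14. Gsn, the actin-severing gelsolin and the most abundant of the list, was at 0.29 and did not pass. Ebf2, a transcription factor of committed and brown-type fat precursors, rose by 1.37 (SE 0.13, edgeR adjusted p = 1.08e-04), from 34.9, 33.9 and 44.7 CPM in Control to 95.3, 108 and 88.9 CPM in ADISSP. Of 11 regulators that promote fat cell formation 5 rose and 1 fell, with a median of 0.31. They included Cebpb (2.12), Cebpa (0.74), Srebf1 (0.91) and Pparg (0.66), all of which mature fat cells also express. With Control 3 as the sole control 3 rose and 0 fell, and Srebf1 no longer passed (adjusted p = 0.0786). Of 8 regulators that restrain it 1 rose and 2 fell, with a median of -0.10: Sox9 (1.46, under 1 CPM in Control), Nr2f2 (-0.33) and Zfp521 (-0.60). None of the 8 passed without Control 1, Control 2 or ADISSP 1, or with Control 3 as the sole control. Sox9 passed without ADISSP 3 or Control 3 but not without ADISSP 2, and Nr2f2 passed in no fit with 1 library left out but the one without Control 3. Of 12 mature fat cell genes 3 rose and 1 fell, beside 18.5% and 16.5% of all tested genes, with a median of 0.30. Without Control 3, 7 rose and 1 fell (median 0.46), and with Control 3 as the sole control 1 rose and 1 fell (median 0.04). Leaving out any other library gave 2 higher and 0 to 1 lower. On log2(TPM + 1) in limma 1 regulator that promotes fat cell formation rose and 3 fell (median -0.22). In the same fit 1 mature fat cell gene rose and 4 fell (median -0.27). That scaling shifted all genes, with 7.41% higher, 55.0% lower and a median of -0.51. Both list medians thus stayed above the median of all genes.

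**Figure D5:**
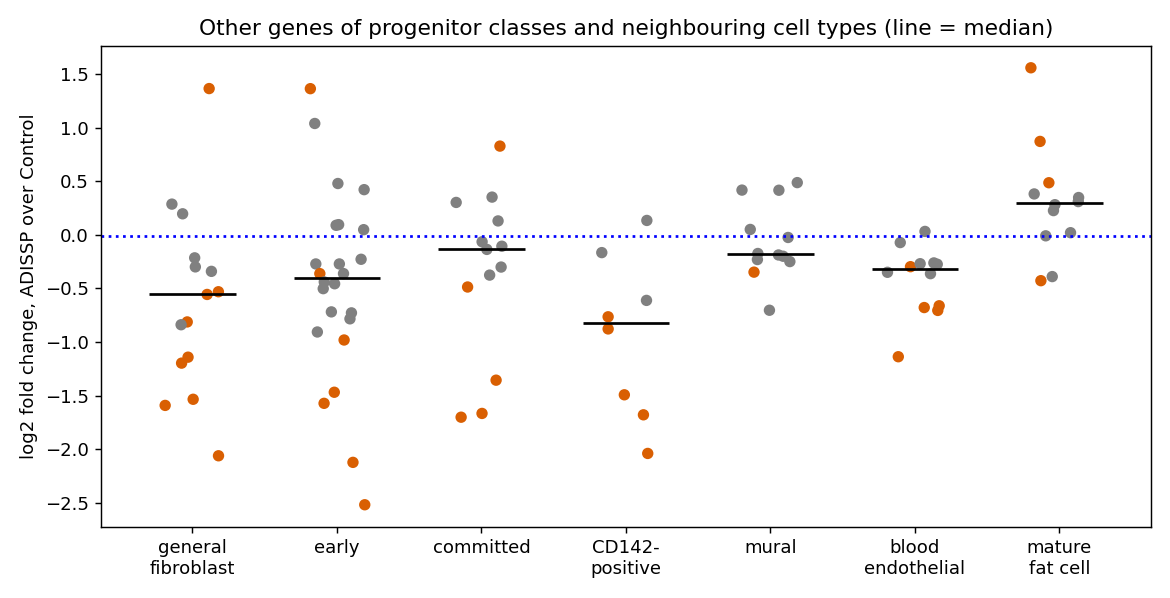
Log2 fold change of ADISSP over Control for each tested gene of 4 progenitor and fibroblast lists and 3 neighbouring cell types, orange where past the threshold; bars are list medians and the dotted line is the median of all genes, -0.01. The CD142-positive list has the lowest median (-0.82) of the lists drawn and the mature fat cell list the highest (0.30).

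Of 14 ligands and partners of the markers 13 could be tested, and 2 fell and 0 rose (3 and 0 at an unadjusted p under 0.05, also by DESeq2). Of all tested genes 16.5% were lower and 18.5% higher, so 2 of 13 lower is close to the background. Leaving out any 1 library but Control 3 left 1 that fell, and without Control 3 there were 3. The platelet-derived growth factor genes were at 0.15 (Pdgfa), -0.06 (Pdgfb), 0.06 (Pdgfc) and -0.31 (Pdgfd), and none passed. Pdgfa stood at 11.6 to 14.7 CPM in Control and 12.2 to 15.8 CPM in ADISSP. Of the clotting partners of F3, Tfpi, the inhibitor of tissue factor, was at -0.43, F7 at -0.41 and F10 at 1.34, none past the threshold. Itga11, an integrin chain reported as a receptor of Clec11a, was at -0.37 and did not pass. Dlk2, a homologue of Dlk1, had too few counts to be tested.

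Cell types that could add to these markers were read from lists of their own genes. B cell genes fell in 10 of 10 cases (median -5.52), and 7 of 7 tested lymph node genes fell (median -5.89). Of 7 tested mast cell genes, a cell type that carries Cd34, 5 fell and 1 rose, with a median of -1.60 (1 fell and 0 rose with Control 3 as the sole control) and a summed level of 50.1 to 77.9 CPM in Control and 25.8 to 33.9 CPM in ADISSP. Mesothelial genes were scarce, at 1.76 to 4.09 CPM summed over 9 genes, of which 2 had no count in any library; of 3 tested, Lrrn4 rose and Gpm6a fell, and the call of Lrrn4 ended without Control 1, ADISSP 1 or ADISSP 3. Genes of mammary epithelium were at 3.19 to 7.28 CPM summed over 10. Of 12 genes of dividing cells 5 fell and 0 rose (6 and 0 at an unadjusted p under 0.05, and 4 and 0 by DESeq2), with a median of -0.53, among them Mki67 (-0.60), Top2a (-0.91) and Mcm2 (-0.90). With 1 library other than Control 3 left out, fewer passed: 1 fell without Control 1, Control 2 or ADISSP 3, 2 without ADISSP 1 and 3 without ADISSP 2. Calls were lost over all genes too in those fits. The number lower went from 2861 to between 1563 (without Control 1) and 1849 (without ADISSP 2), so the loss was not particular to dividing cell genes. Without Control 3, 6 fell, and with Control 3 as the sole control the median was -0.33. Of 7 tested Schwann cell genes 2 rose and 0 fell (2 and 0 also at an unadjusted p under 0.05 and by DESeq2), with a median of 0.00. Those that rose were S100b (3.36) and Erbb3 (0.80), and 5 did not pass. On library totals 1 was higher and 2 lower, beside 10.2% and 38.0% of all genes, and Erbb3 did not pass. With Control 3 as the sole control the Schwann cell median was -0.17. Of 12 skeletal muscle genes 1, Myh1, rose (4.85) and 0 fell (0 also at an unadjusted p under 0.05 and by DESeq2), a result that Control 3 decided. Without Control 3 all 12 were higher (median 6.72), and with Control 3 as the sole control 11 were lower (median -1.34). The part of these cells in the marker levels was not tested.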

How the data were processed

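RNA of inguinal fat from 6 libraries was analysed, 3 per group as the labels' titles give them. Per the labels' protocols, total RNA was extracted with TRIzol and depleted of ribosomal RNA. Per the submitters' processing notes, the authors used STAR and featureCounts with mm39 (GRCm39); versions, annotation release and strand setting were not stated there, so reads of overlapping antisense genes cannot be told apart. The deposited count table holds raw counts. The deposited FPKM and TPM tables (23524 genes) hold the authors' length-scaled values; FPKM entered no test and TPM an alternative. The 10 markers and all lists were chosen with earlier results of these data known.

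Counts were tested with edgeR 4.0.16 in R 4.3.3 (filterByExpr, TMM, robust quasi-likelihood fit, 3 against 3), with Benjamini-Hochberg adjustment over 17320 genes and a threshold of 0.05. SE is the log2 fold change over the square root of F. The same fit was run with libraries scaled to Pdgfra; noise of Pdgfra shifts all values of that fit together. DESeq2 1.42.0, limma 3.58.1 on log2(TPM + 1), other scalings, no filter and omission of each library were alternatives. Named are all 10 markers, all partner genes but 1, which is not reported here, and from each other list the 3 genes with the smallest p and the 2 most abundant; others were named to account for a count, or after their values were seen. Cell type lists were described by counts and medians without a set test. Promoters come from RefSeq on GRCm38.p6, whose coordinates were not mixed with GRCm39.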

Additional observations from a re-analysis of the deposited data

How the results depend on the processing

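The falls of Pdgfra, Pdgfrb and Cd34 kept their direction and stayed past the threshold under all 14 alternatives run, and Icam1 under all but the one with Control 3 as the sole control (-0.52). Dpp4 passed on library totals (-1.61), on log2(TPM + 1) (-1.76), on log2(TPM + 0.1) (-1.89), with the replicate block (-1.31) and without ADISSP 2; with 1 library left out it ranged from -1.80 to -0.95. F3 ranged from 0.22 to 0.55 with 1 library left out and was -0.21 on both TPM scales. Ly6a, at 0.00, turned to -0.0116 with DESeq2 size factors, -0.0122 in DESeq2 and -0.0121 with no filter, to -0.36 on library totals and to -0.57 on both TPM scales, and ranged from -0.0785 to 0.0795 with 1 library left out. Clec11a ranged from -0.45 to 0.12. The number of markers called higher was 0 to 1, the 1 being F3 without Control 3. Relative to Pdgfra, Dpp4 ranged from -0.44 to 0.11 and Icam1 from -0.0595 to 0.34 with 1 library left out. In value, Dpp4 was 0.11 without Control 2, 0.08 without ADISSP 1 and 0.01 without ADISSP 3, and Icam1 was -0.02 without Control 3 and -0.0595 without ADISSP 1.

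Over all genes the main count was 6058 changed (3197 higher, 2861 lower). It was 10804 (1284, 9520) on log2(TPM + 1), 10736 (1274, 9462) on log2(TPM + 0.1), 1759 higher and 6577 lower on library totals, and 3186 (1852, 1334) with Control 3 as the sole control. With 1 library left out it was 3823 to 8517, with 2260 to 4305 higher and 1563 to 4212 lower. TPM and library totals moved the median of all genes from -0.01 to -0.51 and -0.36. The causes of these differences were not tested.

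Same-numbered libraries share no stated source, and their deviations from the group means correlated at 0.03, 0.08 and 0.05, each under 0.1, although every library correlated best with its own number. With the replicate number as a block, 5541 genes changed and 5 markers were lower, Dpp4 among them (-1.31, edgeR adjusted p = 0.0107), with no other marker's call changed. Depth limits Dlk1 and Clec11a: a floor of 3 counts is 0.165 to 0.331 CPM per library.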
